A study of Mus musculus with 64 samples.

Results

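Cytochrome P450 families 1 to 3 are the group of heme enzymes of the endoplasmic reticulum that oxidise drugs, steroids, fatty acids and toxicants. Their genes were taken from the deposited tables by symbol (Cyp, a family number from 1 to 3, a subfamily letter and a gene number) and kept where the mean over the libraries of at least 1 tissue reached 1 TPM (a share of all transcripts, already divided by transcript length). Of 19521 genes in the tables, 56 had such a symbol and 36 met the level. The member just inside was Cyp2d34, with a liver mean of 1.06 TPM, and those just outside were Cyp1a1 (liver mean 0.636 TPM) and Cyp2j13 (mean 0.479 TPM in white fat). The libraries came from 4 tissues, namely liver, heart, muscle and the white adipose depot called WAT, of male mice that were either C57BL/6J wild-type (labelled CTRL) or Pklr-/- mutant (labelled KO). From 8 weeks of age the mice received chow or a high-sucrose diet (HSD) for 8 weeks, and tissue was taken at 16 weeks. Each of the 16 combinations of tissue, genotype and diet holds 4 libraries, and the labels describe 4 mice for each genotype and diet. The labels give neither the part of Pklr that was altered nor the hour of sampling.

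A P450 splits molecular oxygen on a heme iron held by a single cysteine, and places 1 of the oxygen atoms on its substrate with electrons delivered by P450 oxidoreductase. Family 1 enzymes act on planar aromatic compounds and are regulated by the aryl hydrocarbon receptor. Family 2 is the large and varied one, with drug, steroid and arachidonic acid substrates, and family 3 handles bulky drugs and steroids. Liver is the main site of these enzymes, and several of them are used there as markers of the zone around the central vein, of sex, or of nuclear receptor activity.

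The feature that all families share is the short stretch around the heme-binding cysteine. It is shown as coding sequence for the liver-abundant member of each larger subfamily and for the closest pair of genes, because the same resemblance limits how reads can be assigned between copies. Lower-case bases are read 5′ to 3′ from GRCm38 transcripts and span 30 coding bases, and capitals mark the cysteine codon. The pattern of residues around that cysteine was found in 33 of 36 members.
Cyp1a2: ttcggcttgggaaagcgccggTGCattggg
Cyp2c29: ttttcaacaggaaaacggattTGTgctgga
Cyp2d9: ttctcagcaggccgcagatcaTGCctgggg
Cyp2e1: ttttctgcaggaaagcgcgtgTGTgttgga
Cyp2j5: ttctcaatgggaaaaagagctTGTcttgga
Cyp3a11: tttgggaatggacccaggaacTGCcttggc
Cyp2c40: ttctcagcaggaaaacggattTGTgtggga
Cyp2c69: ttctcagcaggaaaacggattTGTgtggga

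The last pair is identical over this stretch, and over the coding sequence Cyp2c40 and Cyp2c69 are 97.89% identical with 33 differing bases. Cyp2c67 and Cyp2c68, of another coding length, hold the same bases over this stretch. Another set matters for the liver results, since Cyp2c37, Cyp2c50 and Cyp2c54 all came out lower on HSD. Their coding bases 1252 to 1341 are given below, with the 6 positions at which the genes differ in capitals.
Cyp2c37: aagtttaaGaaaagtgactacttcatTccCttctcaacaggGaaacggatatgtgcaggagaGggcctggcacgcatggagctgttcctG
Cyp2c50: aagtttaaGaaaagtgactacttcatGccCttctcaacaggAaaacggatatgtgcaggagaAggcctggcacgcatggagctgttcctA
Cyp2c54: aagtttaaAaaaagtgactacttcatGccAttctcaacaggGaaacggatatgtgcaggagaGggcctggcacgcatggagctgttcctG

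Cyp2c37 and Cyp2c50 are 96.13% identical in coding sequence, Cyp2c50 and Cyp2c54 95.25%, and Cyp2c37 and Cyp2c54 95.11%. Of all 31-base words in the Cyp2c50 transcript 47.9% also occur in the transcript of another gene, against 47.4% for Cyp2c37 and 42.3% for Cyp2c54. The estimated counts of such genes divide shared reads by a model, so these 3 are not independent measurements and their split is uncertain. The same holds for Cyp2a12 (41.6%, nearly all with Cyp2a22) and Cyp2d9 (46.4%). By contrast no 31-base word of Cyp2c23, Cyp2f2, Cyp2c70, Cyp1b1, Cyp2r1 or Cyp2s1 occurred in another gene, and the share was 7.96% for Cyp1a2 and 7.04% for Cyp2e1. The members lie largely in clusters (GRCm38): 12 Cyp2c genes on chromosome 19 from 39007019 to 40187333, 6 Cyp2d genes on chromosome 15 from 82370527 to 82794294, 5 genes of the Cyp2a, Cyp2b, Cyp2f and Cyp2s subfamilies on chromosome 7 from 25802475 to 27133660, and 3 each of Cyp2j on chromosome 4 and Cyp3a on chromosome 5.

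**Figure D1:**
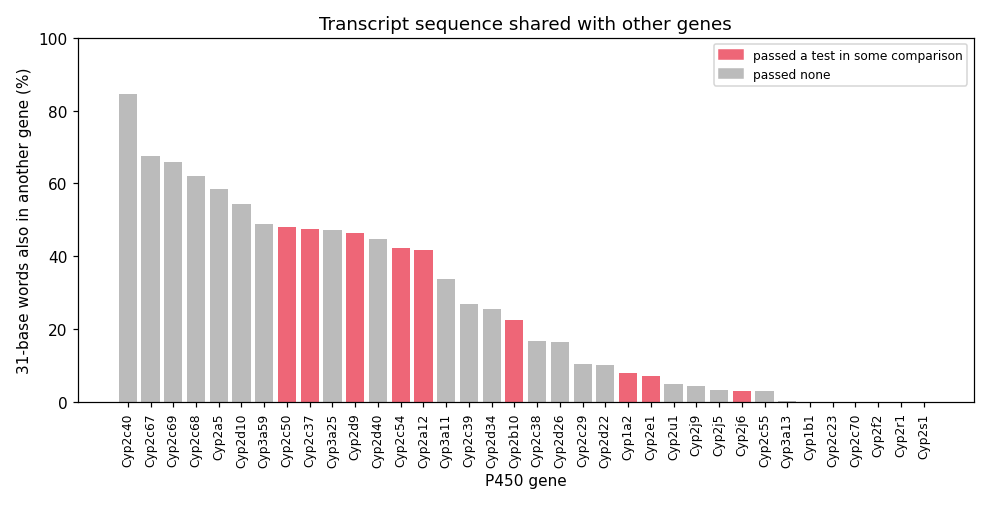
Percentage of each member's 31-base words (vertical axis) that also occur in a transcript of another gene, for 36 members ordered by that share. Red bars are genes that passed a test in at least 1 comparison, and they run from 0% in Cyp2c23 and Cyp2f2 to 47.9% in Cyp2c50.

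Total estimated counts ranged from 5724366 to 12188623 per library. Defining markers matched each tissue label: the summed level of 9 hepatocyte genes was 51500 to 115900 TPM in liver and at most 592 TPM elsewhere, and that of 10 white adipocyte genes was 37470 to 62670 TPM in WAT and at most 880 TPM elsewhere. The summed level of 9 cardiomyocyte genes was 25040 to 33130 TPM in heart, 6653 to 10110 TPM in muscle and at most 18.1 TPM elsewhere. That of 10 skeletal muscle genes was 35140 to 46090 TPM in muscle and at most 701 TPM elsewhere. Pklr itself was higher in the liver of the group labelled KO than in CTRL, at 212 against 113 TPM on chow and 405 against 213 TPM on HSD, so directions by genotype follow the labels as given. In whole tissue, fewer cells of a type and less RNA per cell cannot be told apart.

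The members were mostly liver transcripts. Mean TPM was highest in liver for 33 of 36 and in WAT for 3, Cyp1b1, Cyp2j9 and Cyp2s1. A mean of at least 1 TPM was reached by 34 members in liver, 10 in WAT, 5 in heart and 5 in muscle. The summed level of the members was 9240 to 13550 TPM per liver library, 1768 to 5406 TPM in WAT, 23.5 to 50.1 TPM in muscle and 10.3 to 20.0 TPM in heart. In 33 of 36 members the libraries of the tissue with the highest mean lay wholly above those of the next tissue. The 3 whose libraries overlapped were Cyp2e1, Cyp2b10 and Cyp2c40. Levels by tissue are a description, since a level was part of how the genes were chosen.

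Cyp2e1, which oxidises ethanol, acetone and small solvents, was the most abundant member in liver, WAT and muscle. Its mean was 3692 ± 557 TPM (SD, n = 16) in liver, 3341 ± 1218 TPM in WAT, 22.6 ± 9.002 TPM in muscle and 2.13 ± 1.69 TPM in heart. Liver and WAT libraries overlapped, at 2926 to 4882 and 1678 to 5280 TPM, so these neighbours in the order do not differ beyond their spread. It made up 33.9% of the members' summed TPM in liver, 96.3% in WAT, 62.6% in muscle and 14.4% in heart.

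In liver the next levels were those of Cyp2c29, an enzyme inducible through the receptor CAR (mean 1145 TPM, libraries 554 to 1689), and Cyp2d9, a testosterone hydroxylase of male liver (907 TPM, 573 to 1271). Cyp2f2, which activates naphthalene, followed at 643 TPM (408 to 981) and Cyp2d10 at 545 TPM (318 to 799). The ranges of these neighbours overlapped throughout. By subfamily, the 13 Cyp2c members summed to a mean of 2753 TPM in liver, the 6 Cyp2d members to 2044 TPM, the 4 Cyp3a members to 664 TPM, the 2 Cyp2a members to 483 TPM and the 3 Cyp2j members to 383 TPM. Cyp3a11, the main family 3 enzyme of mouse liver, was at 431 TPM, Cyp1a2 at 228 TPM and Cyp2r1, a vitamin D 25-hydroxylase, at 11.3 TPM.

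Outside liver the makeup was different. Cyp1b1, a family 1 enzyme of connective tissue that oxidises oestrogens and polycyclic hydrocarbons, was at 14.9 TPM in WAT (9.69 to 21.1), 1.68 TPM in heart, 0.579 TPM in muscle and 0.259 TPM in liver. Cyp2s1, an enzyme found in epithelia, was at 9.69 TPM in WAT and below 1 TPM on average in the other tissues, and Cyp2j9 was at 10.3 TPM in WAT and 2.12 TPM in liver. Cyp2d22 was at 66.5 TPM in liver, 22.6 in WAT, 3.12 in muscle and 2.41 in heart, and Cyp2u1, a fatty acid hydroxylase gene, was at 1.499 to 5.81 TPM in all 4 tissues. Most other members were near 0 outside liver: in WAT, 26 of 36 had too few counts for testing.

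**Figure D2:**
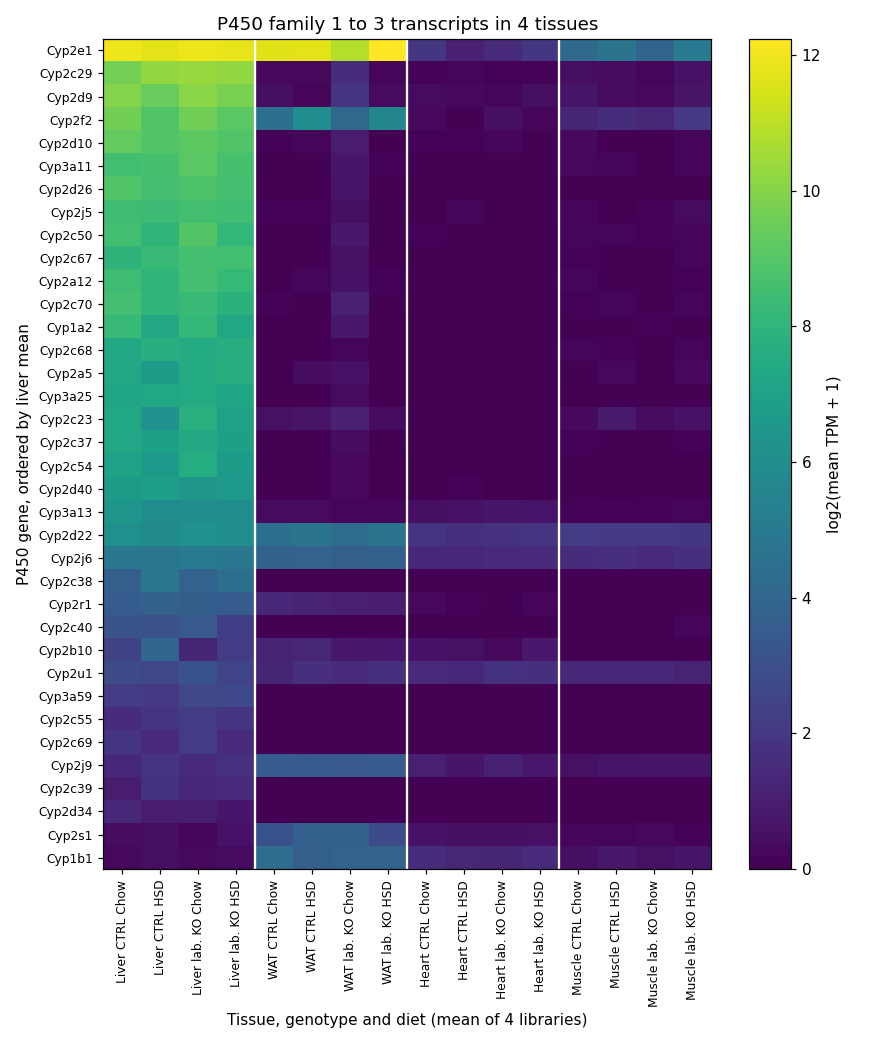
Mean level of each of 36 members (rows, ordered by liver mean) in each of 16 groups of 4 libraries (columns), coloured by log2(mean TPM + 1). The left block, liver, is high for most rows, while Cyp2e1 is high in both liver and WAT, and Cyp1b1 and Cyp2s1 are highest in WAT.

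The first comparison asked what the sucrose diet changed in the liver of CTRL mice. Of 36 members, 35 passed the filter on low counts, all but Cyp2s1. Cyp2c23, Cyp1a2, Cyp2f2, Cyp2a12 and Cyp2d9 fell and none rose, that is 5 of 35, while 4.67% of the 11259 genes tested passed in either direction. Adjusted p-values here and below are from edgeR's quasi-likelihood test with Benjamini-Hochberg adjustment over all genes tested in the tissue, at a threshold of 0.05, and log2 fold changes carry their standard error with n = 4 libraries per group. The median log2 fold change over the tested members was -0.28, with 23 of 35 lower on HSD, beside -0.015 and 51.9% lower over all genes.

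Cyp2c23, an arachidonic acid epoxygenase gene (chromosome 19, 44005022 to 44029208), was 149, 206, 143 and 143 TPM in the CTRL chow libraries and 66.7, 65.8, 75.2 and 83.0 TPM in the CTRL HSD libraries. The groups did not overlap, and the log2 fold change was -1.25 ± 0.20 (adjusted p = 0.00511). Cyp1a2, which breaks down caffeine and aromatic amines (chromosome 9, 57676937 to 57683703), was 246, 227, 373 and 369 TPM on chow and 178, 158, 188 and 135 TPM on HSD. Again every HSD library lay below every chow library, with a log2 fold change of -1.02 ± 0.22 (adjusted p = 0.0183).

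Cyp2f2 (chromosome 7, 27119909 to 27133660) was 623, 866, 648 and 981 TPM on chow and 484, 436, 618 and 412 TPM on HSD, a log2 fold change of -0.81 ± 0.19 (adjusted p = 0.0211). The highest HSD library was just under the lowest chow library. Cyp2a12, a steroid hydroxylase gene, was 322, 353, 310 and 376 TPM on chow and 231, 220, 298 and 271 TPM on HSD, again without overlap (-0.54 ± 0.13, adjusted p = 0.0332). Cyp2d9 was 682, 1210, 1031 and 1132 TPM on chow and 845, 631, 573 and 614 TPM on HSD (-0.73 ± 0.20, adjusted p = 0.043). Here 1 HSD library lay above the lowest chow library, so the groups overlapped.

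Cyp2b10, the phenobarbital-inducible target of CAR, was the nearest to the threshold of those that did not pass. It was 0.561, 5.61, 4.54 and 5.64 TPM on chow and 12.3, 19.4, 11.4 and 16.3 TPM on HSD, with no overlap, and a log2 fold change of 1.74 ± 0.48 (adjusted p = 0.0513). Among the most abundant members that did not pass, Cyp2e1 was 4241, 4307, 3689 and 3204 TPM on chow and 2926, 3389, 3203 and 4141 TPM on HSD, with overlapping groups (-0.28 ± 0.15, adjusted p = 0.284). Cyp2c29 was 554, 1101, 839 and 768 TPM on chow and 1351, 1254, 996 and 1285 TPM on HSD (0.48 ± 0.21, adjusted p = 0.208), and Cyp2d10 was 521, 799, 554 and 673 TPM on chow and 642, 527, 395 and 425 TPM on HSD (-0.47 ± 0.18, adjusted p = 0.143). The remaining 26 tested members had log2 fold changes between -0.92 in Cyp2d34 and 1.21 in Cyp2c39.

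These calls were not stable to the libraries used. Leaving out CTRL chow replicate 4, CTRL HSD replicate 2 or CTRL HSD replicate 4 left 1 of 35 members past the threshold (and 220, 177 and 243 of all genes), Cyp2c23, which passed with every library left out in turn (adjusted p from 0.0087 to 0.0284). The DESeq2 Wald test called 10 members, and 917 of all genes against 526 in edgeR. The CTRL liver groups also differed in other measures: a clock score (log2 level of clock output genes minus that of their activators) was 0.47 to 2.84 on chow and -2.69 to -0.01 on HSD, and with the score as a covariate 0 members passed, as calls over all genes went from 526 to 1. In that fit Cyp1a2 was at -1.28 ± 0.41 (adjusted p = 0.259), Cyp2c23 at -1.02 ± 0.35 (adjusted p = 0.291) and Cyp2f2 at -0.85 ± 0.35 (adjusted p = 0.375), with larger errors than without the score. The scores of the CTRL chow and HSD groups did not overlap, so this fit cannot tell diet and score apart. Acute phase genes, whose summed level was 14270 to 170800 TPM on chow and 14830 to 23030 TPM on HSD, moved too: 3 of 16 fell, beside 4.67% of all genes passing. The acute phase gene Saa1 stood at 45060 and 4974 TPM in CTRL chow replicates 1 and 3 and at 66.2 and 676 TPM in replicates 2 and 4. Without replicates 1 and 3 the members called were 3, Cyp2c23, Cyp2d9 and Cyp2f2, and 112 of 11521 genes were called.

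In the liver of mice labelled KO, 0 of 35 members passed for HSD against chow in edgeR's test, where 0.00888% of all genes did. At an unadjusted p under 0.05 there were 11 of 35 members and 1128 of 11259 genes, and the DESeq2 Wald test called 6 members and 143 of all genes. The smallest p belonged to Cyp1a2, at 274, 295, 270 and 310 TPM on chow and 239, 134, 132 and 116 TPM on HSD (-1.04 ± 0.22, adjusted p = 0.126). Cyp2c50, which like Cyp2c37 and Cyp2c54 encodes an enzyme that oxidises arachidonic acid, was 487, 484, 512 and 523 TPM on chow and 453, 207, 188 and 239 TPM on HSD (-1.03 ± 0.23, adjusted p = 0.126). Cyp2c23 was 168, 177, 239 and 276 TPM on chow and 198, 112, 123 and 76.9 TPM on HSD (-0.91 ± 0.20, adjusted p = 0.126).

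In each of these genes replicate 1 of the labelled-KO HSD group was the high one. Cyp2a12 had the same form, at 350, 379, 418 and 412 TPM on chow and 377, 283, 248 and 251 TPM on HSD. Without that library 5 members and 154 of 11398 genes passed, the members being Cyp1a2, Cyp2a12, Cyp2c23, Cyp2c50 and Cyp2c54, with Cyp2c50 at -1.37 and Cyp2c54 at -1.39. Nr1i3, the gene of the receptor CAR, was 42.2 TPM in that library and 22.2, 13.7 and 18.2 TPM in the other 3. What set the library apart was not tested.

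The most abundant liver members had less separated groups in labelled KO, and none passed. Cyp2e1 was 3181, 3169, 4224 and 4882 TPM on chow and 3846, 3127, 3663 and 3881 TPM on HSD. Cyp2c29 was 1050, 1064, 1277 and 1547 TPM on HSD, and 1329, 1689, 1188 and 1031 TPM on chow, so that every HSD library lay within the chow range. Cyp2d9 was 1038, 1271, 938 and 1086 TPM on chow and 906, 931, 1008 and 622 TPM on HSD.

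Cyp2f2 was 647, 664, 855 and 865 TPM on chow and 706, 612, 469 and 408 TPM on HSD in labelled KO, with 1 HSD library inside the chow range. Cyp2d10 was 448, 576, 538 and 688 TPM on chow and 604, 507, 503 and 318 TPM on HSD, with 1 HSD library below the chow range.

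The diet difference pointed the same way in both genotypes for 28 of 35 members, or 80.0%, beside 62.1% of all genes tested. The 2 comparisons share no library. Of the members, 23 were lower on HSD in both. Across the 35 genes the 2 log2 fold changes had a Pearson correlation of 0.77, beside 0.31 over all genes. This is a description, since copies of 1 subfamily share reads. The median over tested members in labelled KO was -0.36, beside 0.004 over all genes. The clock score was higher on HSD in labelled KO, at 2.08 to 3.52 against 0.86 to 2.09 on chow, and lower on HSD in CTRL. Its part in the shared direction was not tested.

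**Figure D3:**
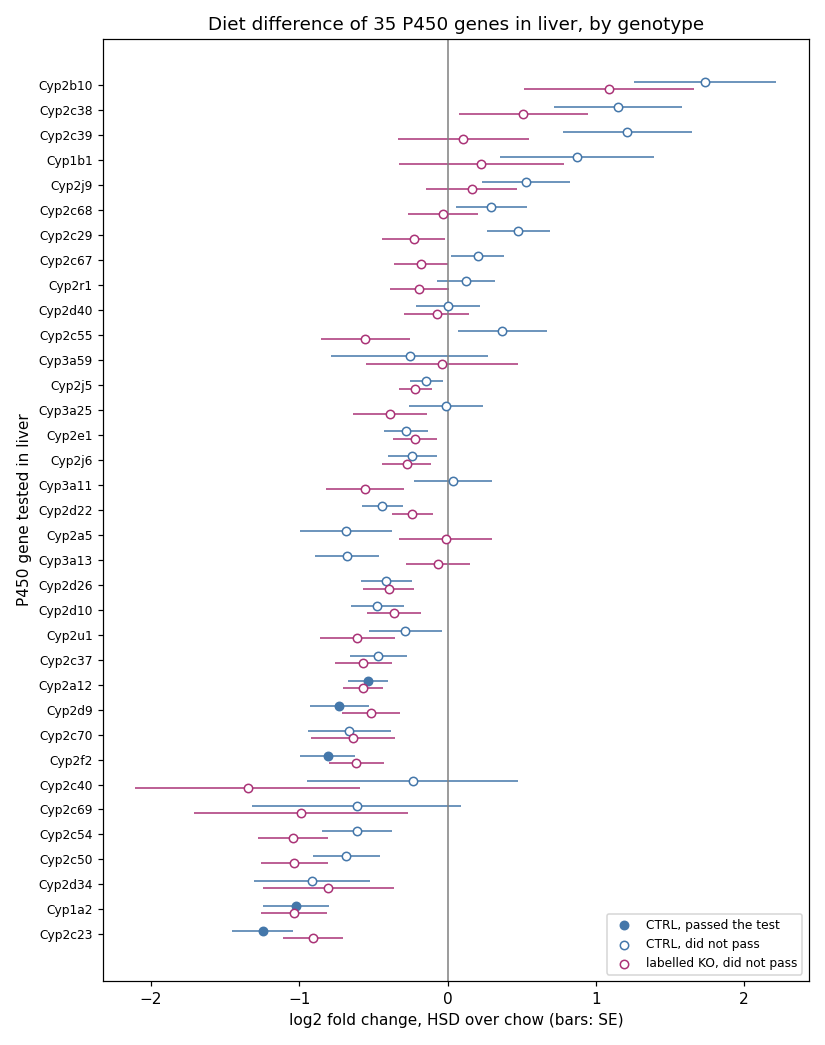
log2 fold change of HSD over chow (horizontal axis, bars are the standard error) for the 35 members tested in liver, in CTRL (blue) and labelled KO (purple). Filled points passed the test, and most points of both colours lie left of 0, with Cyp2c23 lowest in CTRL, Cyp2c40 (wide bars) lowest in labelled KO and Cyp2b10 highest in both.

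Averaged over the genotypes, with 8 libraries per diet, 9 of 35 members passed, 8 lower and 1 higher on HSD, while 5.59% of all genes did. The median was -0.34 with 27 of 35 lower, beside -0.006 and 51.1% over all genes. The largest fall was that of Cyp2c23, from a mean of 188 to 99.97 TPM (-1.08 ± 0.14, adjusted p = 0.00108), followed by Cyp1a2 from 296 to 160 TPM (-1.03 ± 0.16, adjusted p = 0.00224). Cyp2a12 (-0.55 ± 0.10), Cyp2f2 (-0.71 ± 0.13) and Cyp2d9 (-0.62 ± 0.14) also fell, at adjusted p of 0.00437, 0.00622 and 0.0154. The averaged groups of 8 overlapped in every one of the 9.

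Cyp2c37, Cyp2c50 and Cyp2c54 fell together. Cyp2c50 fell from 438 to 263 TPM (-0.86 ± 0.16, adjusted p = 0.00698). Its CTRL libraries were 268, 392, 424 and 416 TPM on chow and 233, 274, 250 and 258 TPM on HSD. Cyp2c54 was 102, 149, 143 and 136 TPM in CTRL chow, 85.1, 112, 76.1 and 102 TPM in CTRL HSD, 161, 152, 211 and 224 TPM in labelled-KO chow and 168, 75.2, 69.4 and 86.9 TPM in labelled-KO HSD (-0.83 ± 0.17, adjusted p = 0.0114). Cyp2c37 was 158, 217, 105 and 156 TPM, then 119, 113, 126 and 136 TPM, then 143, 127, 191 and 208 TPM and lastly 151, 96.6, 100.2 and 145 TPM in the same order of groups (-0.52 ± 0.14, adjusted p = 0.0347). The sequence they share, shown above, means that these 3 calls cannot be taken as separate.

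Cyp2b10 was the member that rose, from a mean of 2.76 to 9.15 TPM (1.41 ± 0.37, adjusted p = 0.0397). Its labelled-KO libraries were 1.957, 2.49, 0.526 and 0.722 TPM on chow and 3.42, 4.44, 3.16 and 2.83 TPM on HSD, so all of the latter lay above all of the former, at a level below that of CTRL HSD. The call was lost when any of 9 of the 16 libraries was left out (adjusted p from 0.0143 to 0.0829 over all 16): labelled-KO chow 3 and 4, labelled-KO HSD 2, 3 and 4, CTRL chow 3, and CTRL HSD 2, 3 and 4. Cyp2c37 was lost without 8, namely labelled-KO chow 3 and 4, labelled-KO HSD 2 and 3, CTRL chow 2 and 4, and CTRL HSD 2 and 3. The other 7 genes passed with each library left out. With the clock score as a covariate 6 of 35 passed, beside 337 of all genes against 629 without it, among them Cyp1a2 (-1.11), Cyp2c23 (-1.0016), Cyp2c50 (-0.84) and Cyp2b10 (1.74). Without the CTRL chow libraries with high Saa1, these 4 were -1.02, -1.14, -0.91 and 1.19 and passed as well.

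**Figure D4:**
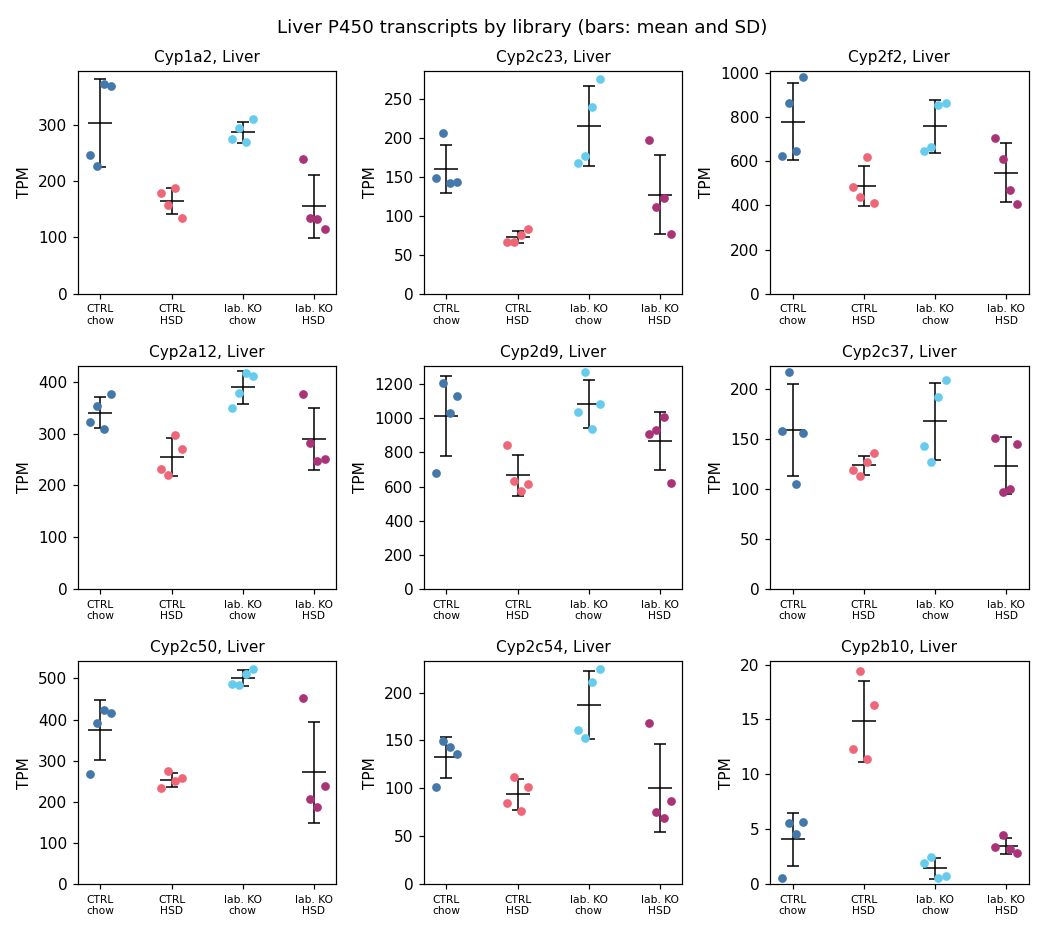
TPM of the 9 members that passed the averaged diet test in liver, 1 point per library, in 4 groups of 4 (black marks are the mean and SD). Points on HSD sit lower than on chow in 8 panels, with replicate 1 of labelled-KO HSD near the chow level in several, and higher in the Cyp2b10 panel.

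By genotype, no member passed in liver. Among chow-fed mice 0 of 35 passed, beside 0.0% of all genes, with 8 members and 12.2% of all genes at an unadjusted p under 0.05. DESeq2 called 2 members, Cyp2c29 and Cyp2c67, and 156 of all genes. The 3 smallest p-values were those of Cyp2c67 (245.9 against 378.1 TPM, 0.66 ± 0.18, adjusted p = 0.196), Cyp2c29 (0.76 ± 0.21, adjusted p = 0.197) and Cyp2c55 (0.89 ± 0.30, adjusted p = 0.26). Of the 35 members 27 were higher in labelled KO, and the median was 0.25, beside -0.014 over all genes. CTRL chow replicate 1, with its high Saa1, held the lowest Cyp2c29 and Cyp3a11 (163 TPM) of the group.

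On HSD, 0 of 35 passed for genotype, beside 0.0711% of all genes, with 4 members and 5.86% of all genes at an unadjusted p under 0.05. Cyp2b10 was lower in labelled KO in every library, at 2.83 to 4.44 against 11.4 to 19.4 TPM (-2.09 ± 0.50, adjusted p = 0.133). It passed in the DESeq2 Wald test (adjusted p = 0.00789), as 86 of all genes did, and with edgeR on only the 8 libraries compared (adjusted p = 0.00511). Cyp2c23 was higher in labelled KO (0.83 ± 0.20, adjusted p = 0.134) and so was Cyp2a5, a coumarin hydroxylase gene (108 against 201 TPM, 0.92 ± 0.31, adjusted p = 0.537). Averaged over diets, 0 passed, beside 0.0% of all genes, with 8 members and 9.58% of all genes at an unadjusted p under 0.05. Cyp2b10 was at -1.77 ± 0.37 (adjusted p = 0.185), and without CTRL chow replicate 1, where it was 0.561 TPM, at -1.95 (adjusted p = 0.0125). Cyp2c23 was at 0.66 ± 0.14 (adjusted p = 0.185) and Cyp2c67 at 0.47 ± 0.13 (adjusted p = 0.285).

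The interaction of genotype and diet passed for 0 of 35 members in liver, as for 0.0% of all genes. At an unadjusted p under 0.05 were 2 members and 8.7% of all genes, and DESeq2 called 0 members and 77 of all genes. The smallest p-values were those of Cyp2c29 (-0.71 ± 0.30, adjusted p = 0.531), Cyp2c55 (-0.92 ± 0.42, adjusted p = 0.565) and Cyp3a13 (0.61 ± 0.31, adjusted p = 0.616). Calls in CTRL but not in labelled KO are therefore not shown to differ between the genotypes.

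The proteins that serve the P450 enzymes were read beside them, averaged over genotypes in liver, where 5.59% of all genes passed. Of 6 electron transfer partners, 1 rose and 2 fell: Pgrmc2, a heme-binding membrane protein gene, went from 21.1 to 38.2 TPM (0.74 ± 0.10, adjusted p = 0.00108), while cytochrome b5 (Cyb5a) fell by 0.42 ± 0.09 (adjusted p = 0.0114) and Pgrmc1 by 0.37 ± 0.09 (adjusted p = 0.0199). P450 oxidoreductase, Por, was at -0.38 ± 0.24 (adjusted p = 0.383). Of 12 genes of heme synthesis and breakdown none passed. Alad, the second enzyme of heme synthesis, had the smallest p (-0.55 ± 0.16, adjusted p = 0.0511), and the rate-limiting Alas1 was at -0.19 ± 0.54 (adjusted p = 0.878).

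Among 11 tested xenobiotic and bile acid receptors and their partners, Nr1i3 fell, from 38.9 to 22.7 TPM (-0.89 ± 0.22, adjusted p = 0.0315). Its CTRL libraries were 24.9, 48.4, 34.0 and 38.5 TPM on chow and 22.3, 19.2, 18.2 and 25.3 TPM on HSD, so only the lowest chow library reached into the HSD range. The bile acid receptor Nr1h4 (-0.26 ± 0.08, adjusted p = 0.0822) and the xenobiotic receptor PXR, Nr1i2 (-0.02 ± 0.09, adjusted p = 0.938), did not pass, nor did the aryl hydrocarbon receptor Ahr (-0.28 ± 0.23, adjusted p = 0.505). Of 4 tested targets of that receptor outside the P450 families 0 passed. Of 11 liver transcription factors, Stat5b fell by 0.29 ± 0.07 (adjusted p = 0.0287).

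Some lists overlap with the members. Of 5 male-biased liver P450 genes 3 fell (Cyp1a2, Cyp2f2 and Cyp2d9), with a median of -0.65, and Cyp2c70, which makes muricholic acids, was at -0.65 ± 0.20 (adjusted p = 0.0689). Of 4 tested female-biased ones 1 rose, Cyp2b10, with a median of -0.07. Of 10 pericentral genes 2 fell, Rhbg (-1.17 ± 0.22) and Aldh1a1 (-0.77 ± 0.16), and of 10 periportal genes 1, Pigr (-0.73 ± 0.13). Of 10 endothelial markers 2 rose (Tek and Pecam1) and of 9 macrophage markers 1 (Mrc1), while of 9 hepatocyte markers 1 fell (Serpina1a). Of all genes, 5.59% passed in this comparison. The part of these cell markers in the P450 values was not tested.

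In WAT 10 of 36 members passed the filter, and the result there was that of Cyp2e1. In labelled KO it rose from 1768, 1772, 2369 and 1678 TPM on chow to 4718, 5280, 5153 and 4144 TPM on HSD. The groups did not overlap, with a log2 fold change of 1.49 ± 0.21 (adjusted p = 0.000924). It was the member called of 10, while 6.38% of the 13255 genes tested passed. Cyp2f2 (1.74 ± 0.56, adjusted p = 0.0746) and Cyp2d22 (0.56 ± 0.22, adjusted p = 0.134) had the next smallest p-values. The call remained with each library left out (adjusted p from 0.00129 to 0.00512). In CTRL, Cyp2e1 was 3723, 2148, 3548 and 3638 TPM on chow and 3109, 2288, 3812 and 4305 TPM on HSD, and did not pass (0.22 ± 0.20, adjusted p = 0.553).

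The test of the difference between these responses, the interaction, gave 1.27 ± 0.29 for Cyp2e1 (adjusted p = 0.0537), and 0 of 10 members passed, beside 0.573% of all genes. At an unadjusted p under 0.05 there were 3 members and 18.5% of all genes. The DESeq2 Wald test called Cyp2e1 (adjusted p = 0.0019) and Cyp2s1, and 531 of all genes. Cyp2e1 passed in edgeR as well once 1 of 3 libraries was left out: replicate 3 of labelled-KO chow (adjusted p = 0.0427), replicate 2 of CTRL chow (0.0216) or replicate 3 of CTRL HSD (0.0315). Calls over all genes were then 221, 89 and 276, against 76 with every library. Cyp2s1 was 5.04, 11.2, 5.61 and 7.60 TPM in CTRL chow, 16.4, 13.1, 4.38 and 16.7 TPM in CTRL HSD, 16.0, 10.8, 9.94 and 13.96 TPM in labelled-KO chow and 9.80, 4.73, 7.85 and 1.98 TPM in labelled-KO HSD (interaction -1.79 ± 0.56, adjusted p = 0.124). Of 5 tested epithelial markers in WAT, 5 were higher on HSD in CTRL and 0 in labelled KO, with an interaction median of -1.34. None passed in these comparisons, and their part in Cyp2s1 was not tested.

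Among chow-fed mice, 1 of 10 passed by genotype, Cyp2e1 (-0.76 ± 0.20, adjusted p = 0.0352), beside 6.68% of all genes. CTRL chow replicate 2, at 2148 TPM, lay below labelled-KO chow replicate 3, at 2369 TPM. The call was lost without any of labelled-KO chow replicates 1, 2 and 4 or CTRL chow replicates 1, 3 and 4 (0 called), and adjusted p ran from 0.0221 to 0.114. On only the 8 libraries compared it was 0.0627. The call was also lost without CTRL chow replicates 2 and 4, picked as standing apart, where 16 of 13727 genes passed. The next smallest p-values were those of Cyp1b1 (-0.51 ± 0.20, adjusted p = 0.13) and Cyp2s1 (0.75 ± 0.39, adjusted p = 0.268). On HSD 0 of 10 passed, beside 0.106% of all genes, with 3 members and 10.6% of all genes at an unadjusted p under 0.05: Cyp2s1 (-1.05 ± 0.40, adjusted p = 0.357), Cyp2e1 (0.51 ± 0.20, adjusted p = 0.371) and Cyp2b10 (-1.05 ± 0.44, adjusted p = 0.406). Averaged over diets 0 passed, beside 3.09% of all genes. There 1 member, beside 17.9% of all genes, was at an unadjusted p under 0.05, Cyp2b10 (-0.85 ± 0.31, adjusted p = 0.16), and Cyp2r1 (-0.56 ± 0.41, adjusted p = 0.517) and Cyp1b1 (-0.17 ± 0.14, adjusted p = 0.563) came next.

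Cyp2f2 was 17.0, 10.3, 29.7 and 26.5 TPM in CTRL chow and 97.8, 44.4, 49.6 and 54.0 TPM in CTRL HSD. These groups did not overlap, but the gene did not pass (1.75 ± 0.54, adjusted p = 0.0732). Of the 10 tested members 0 passed for diet in CTRL, beside 4.77% of all genes, with 4 members and 23.1% of all genes at an unadjusted p under 0.05. DESeq2 called 1 member, Cyp2f2, and 1217 of all genes. Without CTRL chow replicates 2 and 4, picked as standing apart, 9 of 13727 genes passed. Cyp1b1 was 19.3, 16.9, 21.1 and 20.5 TPM on chow and 12.5, 9.997, 15.9 and 10.6 TPM on HSD, also without overlap (-0.50 ± 0.20, adjusted p = 0.147). In labelled KO it was 14.6, 12.4, 18.4 and 9.91 TPM on chow and 13.01, 19.4, 14.4 and 9.69 TPM on HSD (0.18 ± 0.20, adjusted p = 0.644). Cyp2s1 had the third smallest p in CTRL (0.92 ± 0.39, adjusted p = 0.175).

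Averaged over genotypes, 3 of 10 members rose in WAT on HSD and none fell, beside 11% of all genes. Cyp2e1 went from 2580 to 4101 TPM (0.85 ± 0.14, adjusted p = 0.00162) and Cyp2f2 from 18.6 to 54.8 TPM (1.75 ± 0.39, adjusted p = 0.0109). The labelled-KO values of Cyp2f2 were 18.0, 3.42, 25.8 and 18.4 TPM on chow and 36.0, 44.5, 97.3 and 14.3 TPM on HSD. Its call held with each of the 16 libraries left out in turn. It was lost with the clock score (100 of all genes passed) and without CTRL chow replicates 2 and 4 (553 of 13727 genes passed). Cyp2j6 was 10.02, 15.6, 12.6 and 13.2 TPM in CTRL chow, 13.96, 13.1, 13.98 and 12.99 TPM in CTRL HSD, 11.3, 12.1, 12.9 and 11.4 TPM in labelled-KO chow and 12.9, 14.7, 11.8 and 12.0 TPM in labelled-KO HSD (0.24 ± 0.08, adjusted p = 0.0483). For Cyp2j6 the CTRL HSD libraries lay above all labelled-KO chow libraries in TPM, the chow and HSD groups of each genotype overlapped, and its call was kept with only 5 of the 16 libraries left out (those kept were labelled-KO chow 1, 2 and 3 and CTRL chow 2 and 3). The Cyp2j6 call was also lost without the count filter, with limma and with the clock score. Over all these fits its log2 fold change ran from 0.09 to 0.34. Cyp2d22 was 25.0, 16.7, 26.5 and 16.8 TPM in CTRL chow, 25.3, 21.0, 23.1 and 30.6 TPM in CTRL HSD, 15.2, 12.6, 24.6 and 23.3 TPM in labelled-KO chow and 23.4, 25.3, 23.6 and 29.0 TPM in labelled-KO HSD (0.48 ± 0.15, adjusted p = 0.0557).

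Other measures moved with the Cyp2e1 groups in WAT. The clock score was -1.59 to 0.09 in labelled-KO chow and 2.46 to 3.30 in labelled-KO HSD, and -0.50 to 1.43 and -1.51 to 0.23 in CTRL chow and HSD. With the score as a covariate the diet difference in labelled KO was 1.20 ± 0.44 (adjusted p = 0.953), and averaged over genotypes 0.75 ± 0.21 (adjusted p = 0.11). Calls over all genes went from 846 to 0 and from 1459 to 100 in these fits. The scores of the labelled-KO chow and HSD groups did not overlap, so diet and score cannot be told apart there. Of 6 clock-controlled PAR bZIP factors and related repressors 5 rose and 1 fell on HSD in labelled KO. In the same comparison 7 of 10 fibroblast markers and 2 of 10 endothelial markers fell, beside 6.38% of all genes passing in either direction. Of 10 white adipocyte markers 1 rose (Pparg) and 1 fell (Lep). Of 6 electron transfer partners 3 rose there, Pgrmc2 (0.47 ± 0.08), Pgrmc1 (0.35 ± 0.08) and Por (0.80 ± 0.21). The part of these cell markers in the Cyp2e1 values was not tested.

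Transcripts typical of liver were higher in 1 WAT library than in the others. The 26 members with too few counts for testing in WAT summed to 47.5 TPM in labelled-KO chow replicate 3 and to 0.963 to 3.28 TPM in the other 15, and 18 of them had their highest WAT value there. Albumin in that library was 272 TPM, or 0.544% of its liver mean, against 9.99 to 44.1 TPM in the others, and the 26 members stood at a median of 0.562% of theirs. That share of the liver level of Cyp2e1 comes to 20.1 TPM, and the library held 2369 TPM. The call of lower Cyp2e1 in labelled KO on chow remained without that library. The library was the highest of its group in Cyp2e1, so leaving it out widens the difference. That fit therefore cannot show the part of these transcripts in the call. Where these transcripts came from, and their part in Cyp2e1, was not tested.

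Heart held no called member. Of 9 tested, 0 passed for diet in CTRL (0.0247% of 12134 genes did), 0 for diet in labelled KO (0.14%), 0 for genotype on chow (0.0%) or on HSD (0.0412%), and 0 for the interaction (0.00824%). Members at an unadjusted p under 0.05 numbered 0, 2, 2, 1 and 3 in that order, beside 6.16%, 7.43%, 3.68%, 5.44% and 4.78% of all genes. DESeq2 called 0 members in each, and 19, 79, 0, 28 and 21 of all genes. Cyp2d22 was highest, at 2.69, 3.37, 2.77 and 1.49 TPM in CTRL chow, 2.49, 2.60, 1.60 and 1.82 TPM in CTRL HSD, 2.11, 2.72, 2.73 and 1.95 TPM in labelled-KO chow and 4.46, 1.05, 2.39 and 2.33 TPM in labelled-KO HSD. Cyp2u1 followed the same order with 1.99, 1.83, 1.94 and 1.49, then 1.59, 1.67, 2.06 and 1.47, then 2.17, 1.91, 2.80 and 2.76, and lastly 2.30, 2.44, 2.33 and 1.67 TPM. Neither gene separated the groups.

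Cyp2e1 in heart was 2.01, 6.80, 1.08 and 1.22 TPM in CTRL chow, 0.844, 1.94, 1.25 and 0.576 TPM in CTRL HSD, 0.678, 0.987, 1.98 and 3.71 TPM in labelled-KO chow and 4.54, 3.28, 2.15 and 1.08 TPM in labelled-KO HSD. The 3 libraries highest in Cyp2e1, at 6.80, 4.54 and 3.71 TPM, held the adipocyte gene Adipoq at 2.12, 1.75 and 2.27 TPM, and the rest of the heart libraries were at most at 0.97 TPM. The summed level of all 10 white adipocyte markers was 602 to 699 TPM in CTRL chow, 402 to 544 in CTRL HSD, 515 to 646 in labelled-KO chow and 444 to 553 in labelled-KO HSD, and their part in heart Cyp2e1 was not tested. Cyp1b1 was 2.55, 2.03, 1.74 and 1.69 TPM in CTRL chow, 1.52, 1.65, 1.77 and 1.05 TPM in CTRL HSD, 1.09, 1.32, 1.61 and 1.49 TPM in labelled-KO chow and 1.88, 2.17, 1.54 and 1.71 TPM in labelled-KO HSD. Its chow groups did not overlap (-0.58 ± 0.18 by genotype, adjusted p = 1). Cyp2j6 was 1.83, 1.61, 1.69 and 1.13, then 1.68, 1.72, 1.25 and 1.63, then 1.73, 1.37, 1.92 and 2.12, and lastly 1.54, 1.57, 2.14 and 1.996 TPM, with all groups overlapping.

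In muscle 8 members passed the filter. None of them passed for diet in CTRL (0.091% of 12092 genes did) or in labelled KO (0.00827%), for genotype on chow (0.0%) or on HSD (0.0%), or for the interaction (0.0%). Those at an unadjusted p under 0.05 numbered 2, 3, 0, 1 and 1, beside 14.9%, 8.39%, 11.3%, 5.16% and 7.88% of all genes. For diet in labelled KO, DESeq2 called 1 member, Cyp2e1, and 77 of all genes. Averaged over genotypes, a comparison added after the values were seen, 2 of 8 rose on HSD, beside 1.12% of all genes. Cyp2e1 was 20.8, 19.5, 14.1 and 16.0 TPM in CTRL chow, 17.0, 15.9, 32.9 and 35.6 TPM in CTRL HSD, 18.4, 13.2, 13.5 and 12.9 TPM in labelled-KO chow and 31.8, 34.3, 35.8 and 30.2 TPM in labelled-KO HSD (0.81 ± 0.17, adjusted p = 0.032). The labelled-KO groups did not overlap, and the CTRL HSD libraries fell into 2 low and 2 high.

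Cyp1b1 in muscle was 0.293, 0.409, 0.463 and 0.454 TPM in CTRL chow, 0.502, 0.702, 1.07 and 0.708 TPM in CTRL HSD, 0.404, 0.482, 0.417 and 0.578 TPM in labelled-KO chow and 0.593, 0.847, 0.571 and 0.780 TPM in labelled-KO HSD (0.82 ± 0.17, adjusted p = 0.0278). These are small values, resting on a mean of 25.9 counts per library. Leaving out labelled-KO chow 3, labelled-KO HSD 2 or 4, or CTRL HSD 3 or 4 left 0 members called. Leaving out labelled-KO chow 2 or 4, labelled-KO HSD 3, or CTRL chow 2, 3 or 4 left 1, Cyp1b1. The Cyp2e1 call in muscle was thus kept in 5 of the 16 fits with a library left out (adjusted p from 0.0187 to 0.0713). It was also lost without the count filter, and the Cyp1b1 call was lost with limma. Adipocyte transcripts moved in the same comparison: 5 of 10 white adipocyte markers rose, and 3 of 10 endothelial markers fell (Kdr, Cldn5 and Emcn), beside 1.12% of all genes passing. The summed adipocyte markers were 570 to 714 TPM in CTRL chow, 545 to 880 in CTRL HSD, 615 to 695 in labelled-KO chow and 719 to 799 in labelled-KO HSD, and the endothelial ones 120 to 183 TPM over all muscle libraries. Adipoq was 15.6, 13.3, 11.9 and 14.8 TPM in CTRL chow and 18.4, 24.1, 37.9 and 31.6 TPM in CTRL HSD. The 2 CTRL HSD libraries high in Cyp2e1 are the 2 highest in Adipoq. The other CTRL HSD libraries, at 18.4 and 24.1 TPM, also lay above every CTRL chow library in Adipoq, but within the CTRL chow range in Cyp2e1. Adipoq is 1 of the 10 adipocyte markers and is given here for CTRL alone. The part of either cell type in muscle Cyp2e1 and Cyp1b1 was not tested.

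The other members above 1 TPM in muscle did not pass. Cyp2d22 was 3.26, 3.65, 3.53 and 2.95 TPM in CTRL chow, 1.90, 3.22, 2.87 and 4.23 TPM in CTRL HSD, 3.41, 2.65, 3.71 and 3.01 TPM in labelled-KO chow and 2.76, 3.20, 1.71 and 3.77 TPM in labelled-KO HSD. Cyp2f2 was 0.970, 2.38, 0.642 and 1.75, then 1.30, 2.24, 2.59 and 1.99, then 2.01, 1.44, 1.37 and 1.09, and lastly 3.85, 2.95, 3.21 and 2.19 TPM in that order, so its labelled-KO groups did not overlap (0.92 ± 0.30, adjusted p = 0.32). Cyp2j6 was 1.77, 1.94, 1.83 and 2.28, then 2.31, 2.53, 1.90 and 2.26, then 1.84, 2.04, 1.54 and 1.90, and lastly 1.81, 2.45, 2.36 and 2.39 TPM. Cyp2u1 was 1.995, 1.48, 1.33 and 1.34, then 1.38, 1.21, 1.80 and 1.79, then 1.16, 1.64, 1.81 and 1.71, and lastly 1.57, 1.26, 1.67 and 0.846 TPM. The groups of both genes overlapped.

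**Figure D5:**
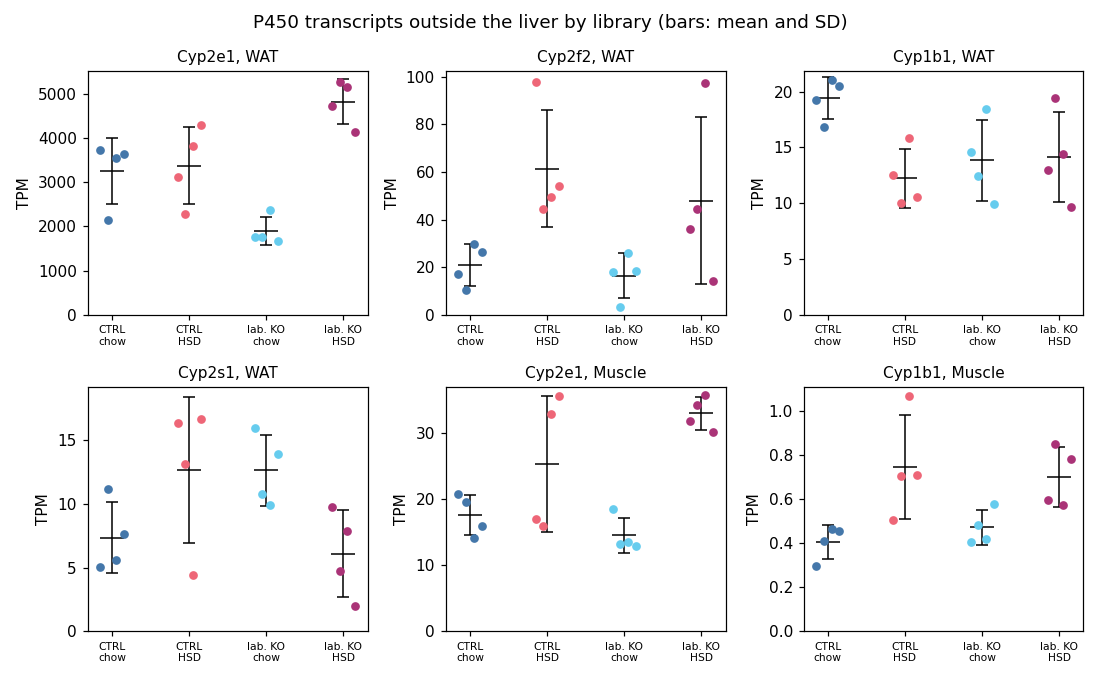
TPM of members outside the liver, 1 point per library in 4 groups of 4 (black marks are the mean and SD). The labelled-KO HSD points of Cyp2e1 lie above the labelled-KO chow points in both WAT and muscle, while Cyp2s1 in WAT runs in opposite directions in CTRL and labelled KO.

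The region before the start site was read for every member with a window, and 3 are printed because their genes passed a test above. RefSeq promoter windows of GRCm38.p6, 250 bases before to 50 after a start site, were found for 31 of 36 members, with 33 windows. The core GCGTG to which the aryl hydrocarbon receptor binds, searched on both strands, was in 5 of 33 windows (15.2%), beside 32.4% of all 32851 windows. The D-box sequences TTACGTAA and TTATGTAA, bound by the PAR bZIP clock factors, were in 0 of 33, beside 1.06%. The TATA box sequence TATAAA, chosen after the windows were seen, was in 18 of 33 (54.5%), beside 13.6% of all windows. This count takes either strand and any position, such as -234 in Cyp3a11 and 41 after the start site in Cyp2c40, so not every match is a TATA box. Many windows are those of similar copies in the Cyp2c and Cyp2d clusters, so they are not separate cases. A match describes the letters alone. The windows of 3 members are shown with matches in capitals, the 250 bases that end at the start site: those of Cyp2e1 (chr7:140763569-140763818, plus strand) and Cyp1a2 (chr9:57683656-57683905, minus strand), each with 1 TATA box, and that of Cyp2b10 (chr7:25897408-25897657, plus strand), with 2 cores of the receptor site, 1 of them on the opposite strand.
Cyp2e1: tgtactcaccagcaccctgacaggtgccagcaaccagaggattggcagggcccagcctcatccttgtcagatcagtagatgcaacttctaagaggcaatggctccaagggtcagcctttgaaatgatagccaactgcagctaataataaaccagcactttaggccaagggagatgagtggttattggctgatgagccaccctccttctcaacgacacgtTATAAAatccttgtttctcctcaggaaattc
Cyp1a2: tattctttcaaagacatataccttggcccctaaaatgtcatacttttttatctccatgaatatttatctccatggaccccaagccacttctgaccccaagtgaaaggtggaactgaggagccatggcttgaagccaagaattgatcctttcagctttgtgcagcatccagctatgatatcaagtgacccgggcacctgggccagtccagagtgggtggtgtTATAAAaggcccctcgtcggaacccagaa
Cyp2b10: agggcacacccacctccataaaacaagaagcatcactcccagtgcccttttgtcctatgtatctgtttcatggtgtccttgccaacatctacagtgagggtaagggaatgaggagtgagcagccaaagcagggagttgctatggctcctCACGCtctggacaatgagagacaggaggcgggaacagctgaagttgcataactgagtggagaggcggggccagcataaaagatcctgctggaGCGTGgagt

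The Cyp2e1 and Cyp1a2 windows thus each hold TATAAA shortly before the start site, at -31 and -29, and neither holds GCGTG or a D-box. The first core in Cyp2b10 begins at -101 and the other at -9.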

How the data were processed

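RNA of 64 libraries was measured, 16 per tissue and 4 per group, and the labels give 4 mice per genotype and diet, so libraries within a tissue were taken as separate animals. Libraries of different tissues may come from the same mice, so results set side by side across tissues are not shown to be independent. The authors deposited estimated counts and TPM per gene. Reads were quantified with kallisto on GRCm38, per the submitters' processing notes, while the sources used here give neither its version nor the annotation. Such estimates divide reads between similar copies by a model, which bears on the Cyp2c, Cyp2d, Cyp2a and Cyp3a genes.

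After rounding to whole numbers, the estimated counts were tested in R 4.3.3 with edgeR 4.0.16 (filterByExpr with a minimum count of 10, TMM, robust quasi-likelihood F test, 2-sided). Each tissue was fitted on its 16 libraries with 4 group means, and p-values were adjusted over all genes tested by Benjamini-Hochberg, at a threshold of 0.05. Standard errors were derived as |log2 fold change|/sqrt(F). Levels are the deposited TPM, with no test. Values in every library are given for members that passed and for the 5 most abundant per tissue, and statistics also for the 3 with the smallest p in liver and WAT comparisons with fewer than 3 calls. The members and lists were chosen with earlier results of these data known.

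Alternatives were DESeq2 1.42.0 (Wald test, and its size factors in edgeR), no count filter, limma 3.58.1 on log2(TPM + 1), only the 8 libraries compared, and each library left out in turn. Added after the data were seen were the clock score as a covariate, fits without chow libraries that stand apart, and the averaged diet comparison in muscle. No 2 libraries of a group held identical values: over 96 pairs the smallest chi-square per degree of freedom was 4.42. In data simulated for the CTRL diet comparison, the test recovered 20.9% of 1.5-fold, 58.2% of 2-fold and 89.4% of 4-fold changes in liver (11094 genes), and 26.9%, 62.7% and 86.4% in WAT (13101 genes). In heart (12035 genes) the shares were 40.3%, 70.1% and 90.9%, and in muscle (11968 genes) 43.3%, 71.6% and 97.0%. Transcript sequences are from GENCODE vM21 (GRCm38) and promoters from RefSeq (GRCm38.p6).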

Additional observations from a re-analysis of the deposited data

Results flagged for a closer look

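In 7 of 112 groups of 4 libraries, 1 library of a P450 gene stood apart from the other 3 by Dixon's test at the 95% level, which chance alone flags in about 1 in 20 groups. Cyp2e1 did so 4 times. In heart, CTRL chow replicate 2 held 6.80 TPM and the others 1.08 to 2.01 TPM. In muscle, labelled-KO chow replicate 1 held 18.4 TPM and the others 12.9 to 13.5 TPM. In WAT, CTRL chow replicate 2 held 2148 TPM against 3548 to 3723 TPM, and labelled-KO chow replicate 3 held 2369 TPM against 1678 to 1772 TPM.

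In liver, Cyp1a2 was 239 TPM in labelled-KO HSD replicate 1 and 116 to 134 TPM in the others, and Cyp2c23 was 206 TPM in CTRL chow replicate 2 and 143 to 149 TPM in the others. Cyp2j6 in muscle was 1.81 TPM in labelled-KO HSD replicate 1 and 2.36 to 2.45 TPM in the others.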

How the results depend on the processing

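No paired analysis was possible because the groups compared within a tissue share no number in their titles. No call reversed. Of 21 calls of members, 11 held with each library left out, and 5 held under every alternative, the averaged liver diet calls of Cyp1a2, Cyp2a12, Cyp2c23, Cyp2c50 and Cyp2f2. Counts of members called moved as follows, each with the count over all genes in parentheses. Smaller moves under the alternatives are left out. The cause was not tested except where fewer samples or genes entered. In liver, diet in CTRL, 5 (526), gave 10 (917) with DESeq2, 3 (555) with limma, 0 (1) with the clock score, 3 (112) without the CTRL chow libraries high in Saa1, and 1 to 7 (177 to 458) with a library left out. Diet in labelled KO, 0 (1), gave 6 (143) with DESeq2 and 0 to 5 (0 to 154) with a library left out. Genotype on chow, 0 (0), gave 2 (156) with DESeq2. Genotype on HSD, 0 (8), gave 2 (86) with DESeq2 and 1 (22) with only the 8 libraries compared. Genotype averaged, 0 (0), gave 2 (73) with DESeq2, 1 (1) without the libraries high in Saa1 and 0 to 1 (0 to 1) with a library left out. Averaged diet, 9 (629), gave 14 (973) with DESeq2 and 7 to 12 (356 to 1014) with a library left out. In WAT, diet in CTRL, 0 (632), gave 1 with DESeq2 (1217), with only the 8 libraries compared (388) and with the clock score (287). Diet in labelled KO, 1 (846), gave 2 (1413) with DESeq2, 0 (0) with the clock score and 1 to 2 (358 to 992) with a library left out. Genotype on chow, 1 (885), gave 0 with only the 8 libraries compared (569), with the clock score (96) and without CTRL chow replicates 2 and 4 (16), and 0 to 1 (325 to 1031) with a library left out. Those 2 libraries were picked for a steep length slope, whose values are not given here. The interaction, 0 (76), gave 2 (531) with DESeq2, 1 (46) without those libraries and 0 to 2 (17 to 276) with a library left out. Averaged diet, 3 (1459), gave 0 (100) with the clock score and 2 to 4 (1041 to 1654) with a library left out. In muscle, diet in labelled KO, 0 (1), gave 1 with DESeq2 (77) and with only the 8 libraries compared (6). Averaged diet there, 2 (135), gave 1 (116) without the count filter, 1 (85) with limma and 0 to 2 (47 to 161) with a library left out. Depth limits Cyp2b10 in liver (a mean of 82.1 counts per library) and Cyp1b1 in muscle (25.9).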
